A study of Mus musculus with 8 samples.

Results

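The enzymes that methylate lysine 9 of histone H3 (H3K9) and the histone deacetylases HDAC1 and HDAC2, with their partners, were examined in mouse embryonic stem cells (ESCs) in which *L3mbtl2* had been knocked down (KD). The 10 genes were chosen by name, as *Setdb1*, *Atf7ip*, *Trim28*, *Ehmt1*, *Ehmt2*, *Wiz*, *Suv39h1*, *Suv39h2*, *Hdac1* and *Hdac2*, out of 19751 genes named on the arrays. All 10 had probes, 14 in total, and every one of these probes was well above background on all 8 arrays. VV3 ESCs are a male line that carries the Vasa::Venus transgene, a fluorescent reporter of the germ cell gene *Vasa*, and were grown on STO fibroblast feeder cells. They received either siRNA against *L3mbtl2* (4 samples) or AllStars, a siRNA without a target that served as control (4 samples). RNA of each sample was hybridized to a 1-colour Agilent mouse array. For the KD, cells positive for the reporter were collected by FACS, and whether the control cells were sorted is not stated. The samples are described as biological replicates, and precision is limited by how few arrays there are.

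Methylated H3K9 marks silent chromatin. SETDB1, which works with its cofactor ATF7IP and is brought to DNA by TRIM28 (KAP1), trimethylates H3K9 and silences endogenous retroviruses in ESCs. G9A (gene *Ehmt2*) and GLP (gene *Ehmt1*) act as a heterodimer, bound by the zinc finger protein WIZ, and dimethylate H3K9 in euchromatin, whereas SUV39H1 and SUV39H2 act mainly at pericentromeric heterochromatin. HDAC1 and HDAC2 are closely related enzymes that remove acetyl groups from histones and form the catalytic core of several co-repressor complexes. G9A, HDAC1 and HDAC2 have been found with L3MBTL2, a chromatin protein of the malignant brain tumor (MBT) family, in a polycomb complex together with MAX and MGA.

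The label of the samples was checked first. On a log2 scale, as intensity minus the 75th percentile of the array, the level of *L3mbtl2* was 0.27, -0.18, -0.21 and -0.31 in control replicates 1 to 4, and -1.45, -1.26, -1.58 and -1.73 in the KD. Every KD sample lay below every control sample. The log2 fold change was -1.40 ± 0.15 (standard error, SE; n = 4 per group; adjusted p = 0.00094 from limma), which left 0.379 of the control level.

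Of the 10 genes, *Ehmt2* was lower and *Hdac2* was higher in *L3mbtl2*-KD ESCs at an adjusted p under 0.05 in limma. Over all 13653 genes tested, 11.7% had a lower probe and 10.3% a higher probe by the same rule, so that 1 of 10 in each direction was close to the background. With a change of more than 2-fold asked as well, 0 of the 10 genes passed in limma, against 5.7% of all genes in either direction at an adjusted p under 0.05. At an unadjusted p under 0.05 the count was also 0, since none of the 10 genes changed by 2-fold. The remaining 8 genes did not pass. With 1 probe per gene, the log2 fold changes of the 10 genes ran from -0.35 to 0.36, with a median of 0.02, against a median of -0.011 over all genes tested. The absolute change of 6 of them was under the median of all genes (0.21), and none was beyond the 90th percentile (0.76).

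The samples share replicate numbers, and same-numbered samples deviated together. With the replicate number as a block, *Hdac1* and *Ehmt1* also passed, which made 3 genes higher and 1 lower. The background rose with it, to 23.9% of all genes higher and 26% lower. Of the probes of the 10 genes, 2 had KD samples that all lay above the control samples (*Trim28* and *Hdac2*) and 1 had KD samples that all lay below (*Ehmt2*). Over all 23525 probes tested, these shares were 11.3% and 13.1%.

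**Figure D1:**
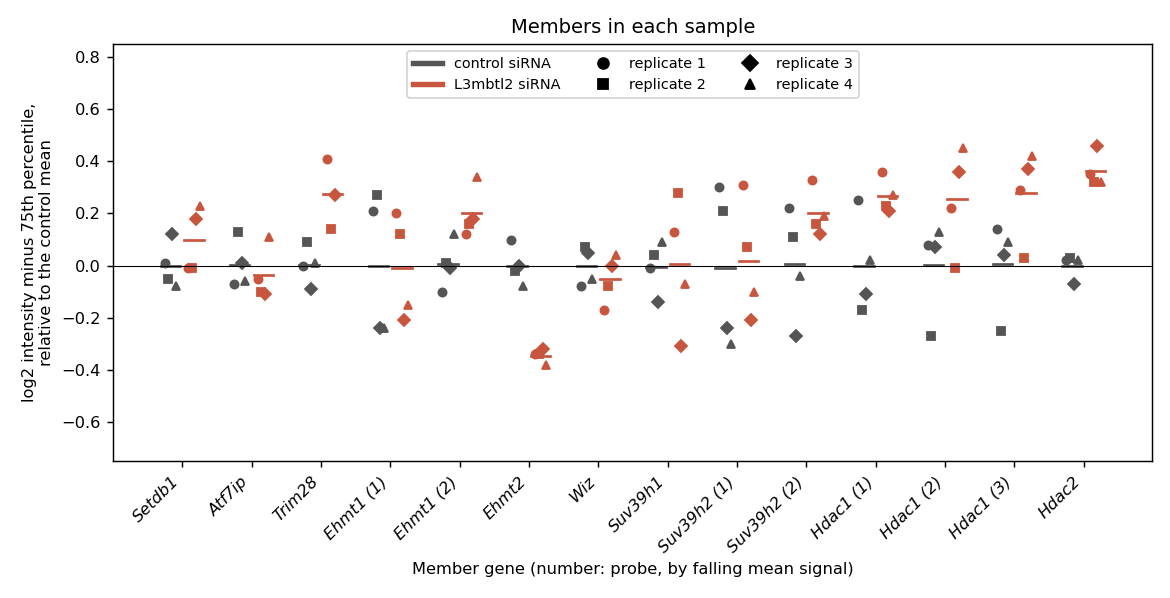
Level of each of the 14 probes in each sample, as log2 intensity minus the 75th percentile of the array, relative to the control mean of that probe. Symbols give replicate numbers, colours give the groups and short lines the group means; the 4 *Ehmt2* values in the KD lie below 0 and the 4 *Hdac2* values above it, with no overlap with the controls.

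*Ehmt2* encodes G9A, which deposits most of the dimethylated H3K9 of euchromatin in ESCs. Its level was 5.42, 5.30, 5.32 and 5.24 in control replicates 1 to 4 and 4.98, 4.98, 5.0 and 4.94 in the KD. All 4 KD samples lay below all 4 control samples, and they lay closer together (SD 0.024) than the controls did (SD 0.075). This was a log2 fold change of -0.35 (SE 0.074, 95% interval -0.52 to -0.18, adjusted p = 0.015 from limma), a ratio of 0.786. The 8 arrays came from 2 slides, and each slide held 2 replicates of both groups. The log2 fold change of *Ehmt2* was -0.39 on slide 1 and -0.31 on slide 2, with an adjusted p of 0.0058 with the replicate block. The gene was still lower at an adjusted p between 0.026 and 0.046 in limma when any single sample was left out.

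*Ehmt2* is shown here with its promoter because the letters bound by the MYC and MAX family of factors, the E-box CACGTG, occur in it. RefSeq promoters, from 250 bases before to 50 bases after a gene start on build GRCm38.p6, were found for 9 of the 10 genes (14 promoters, with several starts for some genes). CACGTG, which reads the same on both strands, was present in 7.15% of all 32851 promoters. Among the 9 genes with a promoter it was present in both *Ehmt2* promoters and in no promoter of another gene. No promoter was found for *Hdac1*, which was therefore not searched for motifs. *Ehmt2* start 1 lies at chr17:34898224-34898523 and start 2 at chr17:34898720-34899019, both on the plus strand, and the E-box is in capitals.
Ehmt2 start 1: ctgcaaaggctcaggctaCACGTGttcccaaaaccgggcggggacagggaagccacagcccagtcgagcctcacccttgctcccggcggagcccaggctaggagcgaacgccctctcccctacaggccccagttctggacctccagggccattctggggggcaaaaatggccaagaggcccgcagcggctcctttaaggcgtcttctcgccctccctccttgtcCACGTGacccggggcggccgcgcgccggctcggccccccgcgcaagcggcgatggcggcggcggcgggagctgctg
Ehmt2 start 2: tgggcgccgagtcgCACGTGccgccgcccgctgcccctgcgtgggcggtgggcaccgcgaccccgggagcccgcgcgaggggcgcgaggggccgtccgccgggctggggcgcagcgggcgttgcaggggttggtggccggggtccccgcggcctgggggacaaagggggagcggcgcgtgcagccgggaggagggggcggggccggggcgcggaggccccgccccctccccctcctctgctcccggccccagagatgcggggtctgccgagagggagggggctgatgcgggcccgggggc
At start 1 there were 2 copies, whose first bases lay at -232 and -26 from the gene start, and at start 2 there was 1 copy, at -236. Letters that match a motif describe the sequence and do not show that a protein binds there. A second motif, the E2F-type GCGGGAA, read on the other strand as TTCCCGC, was present in 4.6% of all promoters. It was found once each in the promoters of *Suv39h2*, at -145, and *Trim28*, at -178, and in 1 of the 4 promoters of *Wiz*, at -140, and none of these promoters held both motifs.

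*Ehmt1* encodes GLP, the partner of G9A, and had 2 probes that behaved differently. For the probe with the highest mean signal, the levels were 3.55, 3.61, 3.1 and 3.1 in the controls and 3.54, 3.46, 3.13 and 3.19 in the KD. These values separated by slide and not by group, since replicates 3 and 4 of both groups lay lower (mean difference between slides -0.41). The log2 fold change was -0.01 (SE 0.16, 95% interval -0.37 to 0.35, adjusted p = 0.97 from limma), with -0.08 on slide 1 and 0.05 on slide 2. For the other probe, the levels were 1.87, 1.98, 1.96 and 2.09 in the controls and 2.09, 2.13, 2.15 and 2.31 in the KD. The KD sample was higher in all 4 pairs of equal number, by 0.16 to 0.22, whereas the groups touched at 2.09. This probe had a log2 fold change of 0.20 (SE 0.087, adjusted p = 0.15 from limma), and it passed with the replicate block (adjusted p = 0.019).

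*Wiz*, whose product links G9A and GLP to DNA and stabilizes them, had control values of 2.53, 2.68, 2.66 and 2.56 and KD values of 2.44, 2.53, 2.61 and 2.65. The groups overlapped. Their means differed by a log2 fold change of -0.05 (SE 0.082, 95% interval -0.24 to 0.14, adjusted p = 0.73 from limma).

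*Hdac2* encodes a deacetylase of the SIN3, NuRD and CoREST complexes. Its probe was spotted 10 times on each array, and the mean of the spots was -2.55, -2.54, -2.64 and -2.55 in control replicates 1 to 4 and -2.22, -2.25, -2.11 and -2.25 in the KD. All 4 KD samples lay above all 4 control samples. The spots within an array had an SD of 0.044 to 0.20, which describes technical spread and not that between cultures. The rise amounted to a log2 fold change of 0.36 (SE 0.075, 95% interval 0.19 to 0.53, adjusted p = 0.013 from limma), or 1.28-fold. It was 0.31 on slide 1 and 0.41 on slide 2, and the adjusted p was 0.0098 with the replicate block. *Hdac2* was still higher at an adjusted p of 0.024 to 0.046 in limma when any single sample was left out. Its promoter, at chr10:36974294-36974593 on the plus strand, held neither motif and is given for comparison with that of *Ehmt2*.
Hdac2: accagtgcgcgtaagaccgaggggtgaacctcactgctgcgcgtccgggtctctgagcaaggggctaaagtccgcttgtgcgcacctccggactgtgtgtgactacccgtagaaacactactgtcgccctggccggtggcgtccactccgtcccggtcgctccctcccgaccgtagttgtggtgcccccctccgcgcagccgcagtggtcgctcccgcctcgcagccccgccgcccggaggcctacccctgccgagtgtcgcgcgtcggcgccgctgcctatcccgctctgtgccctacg

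*Hdac1* encodes the closest relative of HDAC2 and had 3 probes. For the probe with the highest mean signal, the levels were 5.89, 5.47, 5.53 and 5.66 in the controls and 6.0, 5.87, 5.85 and 5.91 in the KD. Control replicate 1 reached the range of the KD samples, and the other 3 controls lay below it. The log2 fold change was 0.27 (SE 0.11, 95% interval 0.03 to 0.51, adjusted p = 0.11 from limma), and the other probes gave 0.25 (adjusted p = 0.22 from limma) and 0.27 (adjusted p = 0.16 from limma). In all 4 pairs of equal number the KD sample was higher, for each of the 3 probes. With the replicate block all 3 probes passed, with an adjusted p of 0.023, 0.016 and 0.014 in limma. Of 8 fits without the block that left out a sample, the first probe passed in 1, that without control replicate 1 (log2 fold change 0.35, adjusted p = 0.033 from limma), and the other 2 probes in none. Without control replicate 2, the log2 fold changes of the 3 probes fell to 0.22, 0.16 and 0.19, and none passed.

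*Trim28* encodes the scaffold that KRAB zinc finger proteins use to recruit SETDB1. Its levels were 4.97, 5.06, 4.88 and 4.98 in the controls and 5.38, 5.11 and 5.24 in KD replicates 1 to 3. The spot of KD replicate 4 carried an outlier flag and was left out of the fit. The 3 KD values lay above the 4 control values, and the log2 fold change was 0.27 (SE 0.099, 95% interval 0.04 to 0.50, adjusted p = 0.10 from limma). With the flagged spot kept, at a level of 5.17, the log2 fold change was 0.25 and the adjusted p 0.08 in limma. With an intensity trend in the variance model of limma, *Trim28* was borderline (adjusted p = 0.0498).

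*Setdb1* and *Atf7ip*, whose products form the enzyme and its stabilizing cofactor, did not pass. *Setdb1* was at 0.30, 0.24, 0.41 and 0.21 in the controls and at 0.28, 0.28, 0.47 and 0.52 in the KD, and the groups overlapped. Its log2 fold change was 0.10 (SE 0.093, 95% interval -0.12 to 0.31, adjusted p = 0.51 from limma), 0.01 on slide 1 and 0.19 on slide 2, and 0.053 without KD replicate 4. *Atf7ip* was at 1.01, 1.21, 1.09 and 1.02 in the controls and at 1.03, 0.98, 0.97 and 1.19 in the KD, again with overlap. For *Atf7ip*, the log2 fold change was -0.04 (SE 0.087, 95% interval -0.24 to 0.16, adjusted p = 0.80 from limma).

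The genes of the heterochromatin enzymes did not pass either. *Suv39h1* was at -0.72, -0.67, -0.85 and -0.62 in the controls and at -0.58, -0.43, -1.02 and -0.78 in the KD. KD replicates 1 and 2 were the highest of the 8 samples and KD replicate 3 the lowest. Over both slides the log2 fold change was 0.01 (SE 0.13, 95% interval -0.29 to 0.32, adjusted p = 0.96 from limma), 0.19 on slide 1 and -0.17 on slide 2. *Suv39h2* had 2 probes, and the probe with the highest mean signal was at 4.63, 4.54, 4.09 and 4.03 in the controls and at 4.64, 4.40, 4.12 and 4.23 in the KD. As for *Ehmt1*, the slides differed more than the groups did (mean difference between slides -0.43), and the log2 fold change was 0.02 (SE 0.17, 95% interval -0.37 to 0.42, adjusted p = 0.94 from limma), with a sign that turned under normexp background correction (-0.015) and under quantile normalization (-0.026). For the other probe of *Suv39h2*, the log2 fold change was 0.20 (SE 0.12, adjusted p = 0.28 from limma), and 0.10 without control replicate 3. Its KD sample was higher in all 4 pairs of equal number, by 0.05 to 0.39, and with the replicate block it did not pass (95% interval 0.01 to 0.38, adjusted p = 0.08 from limma).

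**Figure D2:**
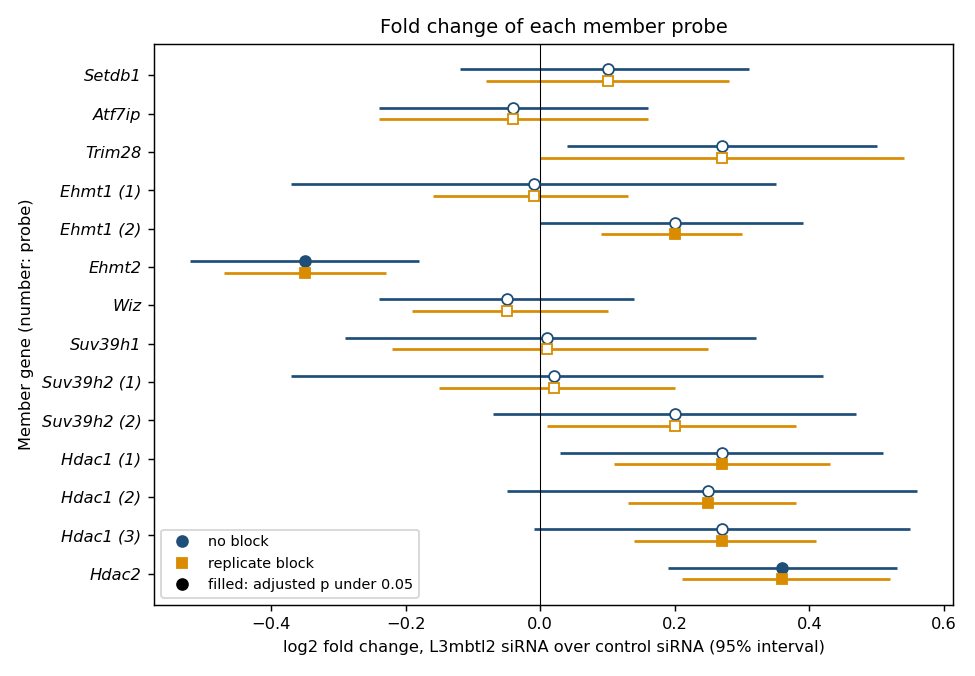
Log2 fold change of each probe, L3mbtl2 siRNA over control siRNA, with 95% intervals from limma, without (circles) and with (squares) the replicate number as a block. Filled symbols have an adjusted p under 0.05, and they are *Ehmt2* and *Hdac2* in both fits and, with the block, the 3 *Hdac1* probes and 1 of the 2 *Ehmt1* probes.

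Ratios within an array were used to ask whether paralogues or partners changed unequally. 4 pairs were compared, by exact permutation of the samples (two-sided), which cannot give a p below 0.0286. Each ratio is given as a log2 difference relative to its control mean. The *Ehmt1* to *Ehmt2* ratio was 0.11, 0.29, -0.23 and -0.16 in the controls and 0.55, 0.46, 0.11 and 0.23 in the KD. It was higher in the KD sample in all 4 pairs of equal number, whereas the groups overlapped and the *Ehmt1* values differed between slides. The mean difference was 0.33 (exact permutation p = 0.114, 0.4 after adjustment over the 4 pairs). With the other probe of *Ehmt1*, the difference was 0.54 at the smallest p of the exact permutation test (0.0286, or 0.114 after adjustment over the 4 pairs), which did not pass after adjustment. The *Hdac1* to *Hdac2* ratio differed by -0.09 (exact permutation p = 0.429), with control values from -0.20 to 0.23 and KD values from -0.25 to 0.02, and by -0.16 (without control replicate 2) to -0.01 when single samples were left out. The *Setdb1* to *Atf7ip* ratio differed by 0.13 (exact permutation p = 0.2; 0.08, without control replicate 2, to 0.17 when single samples were left out), and the KD sample was higher in 3 of 4 pairs of equal number. The *Suv39h1* to *Suv39h2* ratio differed by -0.01 (exact permutation p = 0.943), with a sign that turned under normexp (0.02) and quantile normalization (0.08), and the control values, from -0.32 to 0.39, enclosed those of the KD. It ran from -0.12 to 0.12 when single samples were left out, and with the other probe of *Suv39h2* it was -0.18 (exact permutation p = 0.229).

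**Figure D3:**
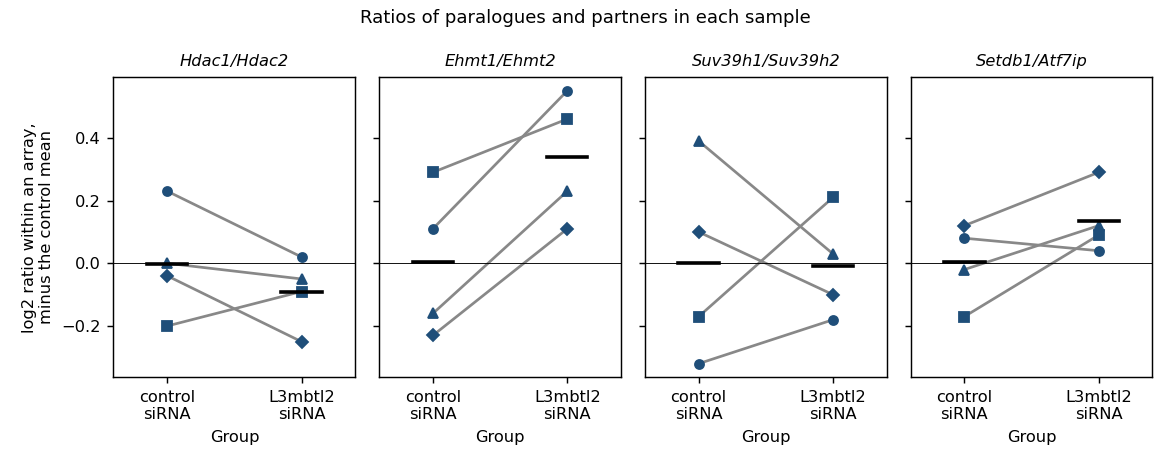
Log2 ratio of 2 genes within each array, minus the mean of the control samples, with lines that join samples of equal replicate number and bars at the group means. The *Ehmt1* to *Ehmt2* ratio is higher in the KD in each of the 4 pairs, by 0.17 to 0.44.

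The 10 genes work with readers, recruiters and antagonists, which are given by counts with 1 probe per gene; over all genes tested, 9.35% were higher and 10.8% lower by this count, or 22.2% and 23.8% with the replicate block. Another 6 tested genes encode related SET domain proteins or partners of H3K9 methyltransferases (median log2 fold change 0.11). Of these, 1 was lower, and with the replicate block *Prdm2* was higher as well. The lower one was *Setmar* (log2 fold change -0.64, SE 0.12, adjusted p = 0.0096 from limma, and -0.37 at an adjusted p of 0.037 with normexp), which encodes a SET domain protein, whereas *Resf1*, a partner of SETDB1, did not pass (0.11, adjusted p = 0.61 from limma). Of 12 readers of the mark and their partners (median -0.01), 2 were higher and 1 lower, or 4 and 2 with the replicate block. The higher ones were *Pphln1* of the HUSH complex (0.60, adjusted p = 0.013 from limma) and *Daxx*, a histone H3.3 chaperone (0.48, adjusted p = 0.029 from limma). The lower one was *Cbx5*, which encodes HP1alpha (-0.34, adjusted p = 0.025 from limma), and its other probe gave 0.05 (adjusted p = 0.69 from limma). *Daxx* did not pass in 6 of 8 fits that left out a sample (adjusted p up to 0.078 from limma), nor did *Cbx5* in 5 of 8 (up to 0.075). For *Daxx* these samples were KD replicates 1, 3 and 4 and control replicates 2, 3 and 4, and for *Cbx5* they were KD replicates 3 and 4 and control replicates 2, 3 and 4.

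H3K9 demethylases, the antagonists of the methyltransferases, had 0 of 10 genes called in limma (median -0.11), with 3 at an unadjusted p under 0.05, 1 higher and 2 lower. Over all 13653 genes tested, 4962 were at an unadjusted p under 0.05 in a limma fit of 1 probe per gene. With the replicate block 1 demethylase was higher and 3 were lower. *Phf2* passed as lower without control replicate 1 and *Kdm3a* without KD replicate 2, and *Kdm1a* was at 0.05 (adjusted p = 0.73 from limma). Of 6 tested KRAB zinc finger genes, whose products recruit TRIM28, only *Zfp809* passed (1.13, SE 0.22, adjusted p = 0.011 from limma), at a median of -0.05; its other probe gave 0.39 (adjusted p = 0.022 from limma). *Zfp568* was at -0.01 (adjusted p = 0.98 from limma). Of 14 other deacetylases and sirtuins (median 0.07), 3 were higher and 2 lower, or 4 and 3 with the replicate block. *Hdac7*, a class IIa enzyme, was lower (-1.06, adjusted p = 0.0048 from limma), as was *Hdac10* (-0.33, adjusted p = 0.02 from limma). *Sirt7* was higher (0.53, adjusted p = 0.013 from limma), as was *Hdac9* (0.70, adjusted p = 0.048 from limma). The third higher gene, named after its values were seen, was *Hdac6* (0.28, adjusted p = 0.044 from limma), which passed in 1 of 8 fits that left out a sample, that without control replicate 2 (adjusted p up to 0.12 in the others). *Hdac9* did not pass in 6 of 8 fits that left out a sample, namely control replicate 1, 3 or 4 or KD replicate 1, 2 or 3 (adjusted p up to 0.12 from limma), nor with normexp (0.34, adjusted p = 0.0721), no filter on dim probes (0.105), an intensity trend (0.061) or adjusted one-way tests (0.0995). *Hdac10* did not pass without replicate 3 of either group (adjusted p up to 0.059 from limma). The number of higher genes on this list was thus 1 (*Sirt7*) in 6 of these 8 fits, 2 without KD replicate 4 and 3 without control replicate 2. Of 22 subunits of complexes built on HDAC1 and HDAC2 (median 0.03), 1 was higher and 1 lower, and with the replicate block 4 and 4. *Gatad2a* of NuRD was the higher one (0.70, adjusted p = 0.0069 from limma), and its 2 other probes gave less, 0.30 (adjusted p = 0.048 from limma) and 0.12 (adjusted p = 0.34 from limma). *Mideas* of the MiDAC complex was the lower one (-0.53, adjusted p = 0.043 from limma) by 1 of its 3 probes; the others did not pass (-0.28, adjusted p = 0.24, and -0.19, adjusted p = 0.69, from limma), and the first did not pass in 7 of 8 fits that left out a sample (adjusted p up to 0.11 from limma), all but that without control replicate 4. Without control replicate 1, *Rcor2* was higher as well.

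**Figure D4:**
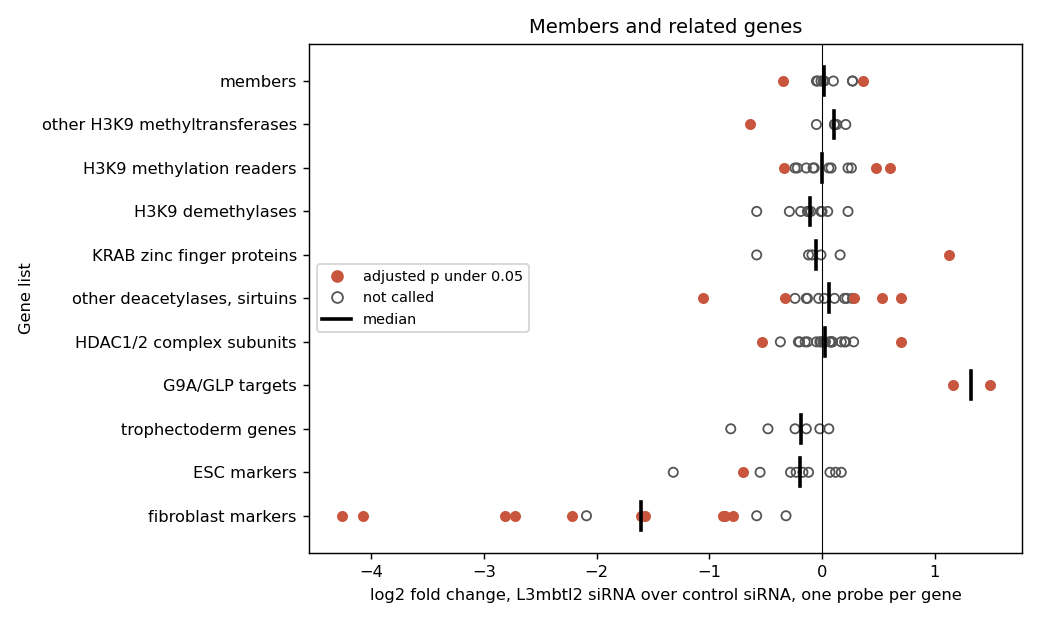
Log2 fold change of the 10 genes (top row) and of the genes of each list, 1 probe per gene, with filled points for an adjusted p under 0.05 and bars at the medians. The 10 genes lie between -0.35 and 0.36, and the fibroblast markers have a median of -1.61, or -1.22 without 3 genes that were well above background on all arrays only in the controls.

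Genes known to be silenced by these enzymes in ESCs were also measured. Of 7 genes repressed by G9A and GLP, 2 were tested, both well above background on all 8 arrays. Both were higher in the KD, against 9.35% of all genes tested with 1 probe per gene. The list was chosen with earlier results of these data known, so this count is descriptive only. *Wfdc15a*, a protease inhibitor gene, was at -4.13, -4.01, -4.62 and -4.26 in the controls and at -2.40, -2.89, -3.20 and -2.59 in the KD, with no overlap (log2 fold change 1.49, SE 0.20, adjusted p = 0.0021 from limma, and 0.85 with normexp). *Tuba3a*, a testis tubulin gene, was at 2.42, 2.80, 2.29 and 2.32 in the controls and at 3.52, 3.53, 3.63 and 3.78 in the KD, also with no overlap (1.16, SE 0.13, adjusted p = 0.0011 from limma). The control mean of *Tuba3a* (2.46) lay above the array percentile that was subtracted. Its probe thus had a strong signal in the controls already. The control mean of *Wfdc15a* (-4.26) lay far below that percentile. Whether *Tuba3a* was silenced in these control cells was not tested. The part of *Ehmt2* in the changes of both genes was not tested either. KD cells were sorted for a germ cell reporter and no sort is stated for the controls. Effects of the KD and of the sort on these 2 genes cannot be told apart. Of trophectoderm genes, a class repressed by SETDB1, 0 of 6 tested passed in limma or at an unadjusted p under 0.05 (median -0.19, from -0.31 to -0.02 without single samples). Among all 13653 genes tested, 4962 were at an unadjusted p under 0.05 with 1 probe per gene. *Cdx2* and *Gata3* entered the test only through the controls, which were well above background where some KD samples were not, so that calls of these 2 genes as lower (with the replicate block, and without KD replicate 1) support nothing. The 4 others had a median of -0.08; *Tfap2c* was at -0.02 (adjusted p = 0.96 from limma).

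Markers of the feeder cells moved with the groups. Of 15 fibroblast markers, 10 were well above background on all arrays, and 8 of these were lower in the KD (median log2 fold change -1.22). Another 3, *Dcn*, *Col3a1* and *S100a4*, entered the test only through the controls, where they were high, and could hardly have come out otherwise than lower. With them, 13 were tested and 10 were lower, or 9 to 12 without single samples (median -1.61, also with bounds in place of values for genes not well above background). The summed level of the 13 genes, relative to the 75th percentile of the array, was 62.6, 72.4, 71 and 68.6 in the controls and 34.2, 40.8, 39 and 34.1 in the KD. *Fn1* had the strongest signal of the list and was lower (-0.88, adjusted p = 0.0039 from limma). *Dcn* and *Col3a1*, which define fibroblasts, were not well above background in any KD sample, so bounds are given. Without normexp, *Dcn* was at least 12.3-fold lower in the KD and *Col3a1* at least 7.92-fold. For these bounds, the mean of the controls was set against the lowest signal well above background on each KD array. With normexp, both genes were still lower, by log2 fold changes of -1.88 for *Dcn* and -1.55 for *Col3a1*. These changes are smaller than the bounds, which therefore hold only for the processing without normexp. *Col1a2* (-2.81) and *Acta2* (-2.72) were lower as well (adjusted p = 0.0044 and 0.003 from limma). Fewer feeder cells and less RNA per feeder cell cannot be told apart in bulk RNA. The KD cells were sorted for the reporter, a gate that can remove feeder cells, and no sort is stated for the controls. The part of the sort in these marker values was not tested. The parts of the sort and of feeder cells in the values of *Ehmt2*, *Hdac2* and the other 8 genes were not tested either. Of 10 ESC markers (median -0.20), 4 were lower and 0 higher at an unadjusted p under 0.05. With 1 probe per gene, 4962 of all 13653 genes tested were at an unadjusted p under 0.05 in either direction. After adjustment 1 ESC marker was lower, *Klf4* (-0.70, adjusted p = 0.027 from limma), which did not pass without control replicate 3 or KD replicate 3 or 4 (adjusted p up to 0.071 from limma). *Nanog*, named after its values were seen, had the largest change on the list (-1.32, adjusted p = 0.096 from limma) and passed without KD replicate 4, as did *Fgf4* without KD replicate 2. With the replicate block 1 ESC marker was higher and 3 were lower, and *Dppa5a* was at 0.17 (adjusted p = 0.3, or 0.032 with the block, from limma).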

How the data were processed

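Total RNA of 8 samples, 4 with L3mbtl2 siRNA and 4 with control siRNA as the titles give them, was measured on 1-colour arrays. The authors deposited each array's spot intensity after background subtraction by Feature Extraction 10.7.3.1, before any normalization across arrays. A second file that the authors deposited holds log2 values; these matched log2 intensity after subtraction of the array's 75th percentile and of each probe's median (lowest correlation over arrays 0.9997). Its column medians ran from -0.059 to 0.08, and its direction was that of the intensities.

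Here log2 intensity minus each array's 75th percentile was used, without control spots and spots with outlier flags, and spots of a probe were averaged. No spot was saturated, and 59.5 to 66.6% of spots were well above background. Of 39429 probes, 26055 were named through RefSeq accessions (GRCm38.p6). Tested probes (23525, of which 85 lacked a value on some array) were those well above background on all arrays of a group. A probe with several spots counted as above background if at least 50% of its spots were. A stricter rule, more than 50%, was tried first and gave 23524 probes; the rule used was taken because it gives the number known from an earlier analysis of these data. Where 1 probe stands for a gene, it has the highest mean signal.

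The fit across all genes used limma 3.58.1 (functions lmFit and eBayes; R 4.3.3), p-values were adjusted by Benjamini-Hochberg over every tested probe, and scripts were tested on simulated data. Deviations from group means correlated by 0.38 to 0.58 between samples of equal replicate number and by -0.44 to 0.25 otherwise. This was taken as pairing by number, which the labels do not state. Samples of equal number also lay at neighbouring positions of the same slide, so paired cultures and array position cannot be told apart. Besides the 10 genes and *L3mbtl2*, up to 4 called genes of each list with the largest absolute log2 fold change were named, and where fewer than 2 were called, the uncalled gene with the highest mean signal. Outside this rule, *Fn1*, *S100a4*, *Prdm2*, *Phf2*, *Kdm3a*, *Hdac6*, *Rcor2*, *Cdx2*, *Gata3*, *Nanog* and *Fgf4* were named after their values were seen. The members and lists were chosen with earlier results of these data known. Alternatives were normexp (offset 50, on median spot signals), quantile normalization, the deposited table, other filters, slide or replicate block, an intensity trend, one-way tests, 1 probe per gene, a 2-fold threshold, flagged spots kept, single samples left out and each slide alone.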

Additional observations from a re-analysis of the deposited data

Results flagged for a closer look

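In groups of 4, the gap of a sample to the nearest other sample was taken as a share of the range of the group. A sample was set apart where this share passed a cut that chance passes in about 1 in 20 groups. The lowest share set apart was 0.836, and smaller gaps, also those over most of the range, were not listed. Of 75 groups examined, 4 had such a sample. For the *Hdac1* probe with the intermediate signal, control replicate 2 (3.75) lay below the mean of the other controls (4.11), with a gap of 0.854 of the range, and the log2 fold change was 0.16 without it. For *Hdac2*, control replicate 3 (-2.64) lay below the others (-2.55), with a gap of 0.877 of the range, and the log2 fold change was 0.34 without it. For *Setmar*, control replicate 1 (-1.96) lay above the others (-2.17), with a gap of 0.836 of the range, and the log2 fold change was -0.58 without it. For *Daxx*, KD replicate 2 (3.33) lay below the others (3.70), with a gap of 0.868 of the range, and the log2 fold change was 0.58 without it.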

How the results depend on the processing

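*Ehmt2* stayed lower (log2 fold change -0.39 to -0.31) and *Hdac2* higher (0.28 to 0.46) under all 23 alternatives, and they passed in all of these except slide 1 alone and slide 2 alone, where 2 samples per group were fitted. There, 0 of the 10 genes were called in either direction. Those fits called 0 genes higher and 0 lower on slide 1 (2325 at an unadjusted p under 0.05), and 740 higher and 924 lower on slide 2, against 1406 and 1603 with all samples.

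The number of the 10 genes that were higher, 1 of 10, was 3 with the replicate block, 2 with an intensity trend (*Trim28* in addition, adjusted p = 0.0498), 4 with unadjusted one-way tests, 0 with the 2-fold threshold and 1 to 2 when single samples were left out. The number lower, 1 of 10, was 0 with the 2-fold threshold. Among the other genes named, calls were also lost for *Daxx*, *Cbx5*, *Hdac9*, *Hdac10*, *Mideas* and *Klf4* with no filter on dim probes, for *Daxx*, *Hdac9*, *Mideas* and *Klf4* with adjusted one-way tests, for *Hdac9* with normexp and an intensity trend, for *Mideas* with quantile normalization, and for *Pphln1*, *Gatad2a*, *Cbx5*, *Hdac9*, *Hdac10*, *Mideas* and *Klf4* on slide 2 alone (adjusted p 0.0521 to 0.142). Over all genes, 3259 were higher and 3546 lower with the replicate block, sharing 1402 and 1596 with the fit without it. Counts were 2477 and 2655 with unadjusted one-way tests, 819 and 1047 with no filter on dim probes, and 340 and 438 past 2-fold. With no filter, more probes entered both the variance model of limma and the adjustment, and the part of each was not tested. Without single samples they ran from 785 to 1398 (lowest without control replicate 3) and from 997 to 1579. The replicate block changed no call among the 10 genes other than *Hdac1* and *Ehmt1*. The spot rule tried first, chosen again as an alternative after seeing the data, gave the same calls among the 10 genes.

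Signs turned among values near 0 that passed no test, and the cause was not tested. On slide 2 alone these were *Atf7ip* (0.029), *Ehmt1* (0.055), *Wiz* (0.02), *Suv39h1* (-0.17), *Zfp568* (0.044) and *Tfap2c* (0.093), and on slide 1 alone *Suv39h2* (-0.068). *Suv39h2* turned with normexp (-0.015) and quantile normalization (-0.026), *Zfp568* with normexp (0.02) and *Kdm1a* with quantile normalization (-0.001). Without single samples, log2 fold changes ran from -0.088 to 0.003 for *Atf7ip*, -0.093 to 0.078 for *Ehmt1*, -0.079 to 0.12 for *Suv39h1*, -0.074 to 0.13 for *Suv39h2*, -0.11 to 0.12 for *Zfp568* and -0.16 to 0.16 for *Tfap2c*. In these fits *Wiz* ran from -0.08 to -0.011 and *Resf1* from 0.017 to 0.19, without a turn of sign. The *Suv39h1* to *Suv39h2* ratio turned with normexp (0.02) and quantile normalization (0.08), and the *Ehmt1* to *Ehmt2* ratio was 0.54 with the other *Ehmt1* probe. With the pairing, a sign-flip exact test of the 4 paired differences cannot go below 0.125. List medians moved by more than the spread between samples for fibroblast markers (-0.88 with normexp, -1.22 with probes above background on all arrays), for targets of G9A and GLP (1.01 with normexp) and for KRAB zinc finger genes (-0.09 to 0.09 without single samples). Medians moved less, though across 0, for readers (-0.03 to 0.07) and for subunits of HDAC1 and HDAC2 complexes (-0.03 to 0.07), and with the same sign for other methyltransferases (0.04 to 0.17) and demethylases (-0.15 to -0.04). All probes of the 10 genes were well above background on all arrays. The *Hdac2* probe had the lowest control mean among them (-2.57), and its log2 fold change was 0.36 without normexp and 0.28 with it.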
